A study of Mus musculus with 2 samples.

Results

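The 585 strongest Foxf2-FLAG regions of the embryonic mouse palate were those with a normalized tag count of at least 40 in the deposited list of 9165 regions, or 6.38% of the list. The normalized tag count is the number of ChIP sequence tags in a region scaled to a library of 10000000 tags, so the members were chosen by their ChIP signal, and their tags, fold, score and width are given as a description. A region at the threshold held 108 tags. The 585 regions held 22.8% of the tags in regions, 0.338% of all ChIP tags and 9.91% of the length covered by regions.

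Chromatin came from 50 pairs of palatal shelves, the paired outgrowths that fuse into the palate, of Foxf2FLAG/FLAG embryos at E13.5 (embryonic day). In these animals both endogenous copies of Foxf2 carry a 3xFLAG epitope tag made by genome editing. DNA precipitated with anti-FLAG antibody gave 1 library of 26849463 tags, which was set against 1 input library of the same genotype and tissue, whose depth followed from the deposited values as about 19240000 tags. The shelves were pooled, there was no replicate, and a precipitation from untagged shelves was not analysed here, so binding that depends on the tag cannot be told apart from other enrichment in the precipitate. For each tag count therefore only the counting error can be given, and variation between precipitations, pools or amplifications cannot be estimated. Each p-value below covers the spread between regions of 1 pair of libraries.

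Foxf2 is a transcription factor of the forkhead family that is made in the mesenchyme of the palatal shelves, and mice without it have a cleft palate. Forkhead proteins place a helix in the major groove of DNA and recognise a short A- and T-rich core, best known as GTAAACA. In the palate Foxf2 acts downstream of hedgehog signalling from the epithelium. A forkhead site is used below for GTAAACA, for its relative ATAAACA, for the form GTAAATA and for the form ATAAATA, on either strand.

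The sequences that follow come from the 8 regions with the most tags, leaving out the one near Slc14a2, and from the regions near Foxf2 itself and the hedgehog receptor gene Ptch1. They show the closest pair of forkhead sites, or the site nearest the centre where no pair was close, on the plus strand of the mouse assembly NCBIM37 (mm9). Capitals mark the forkhead sites, and a run that starts with TGTTTA or TATTTA is a site on the minus strand.
Twist1, chr12:34737282-34737360: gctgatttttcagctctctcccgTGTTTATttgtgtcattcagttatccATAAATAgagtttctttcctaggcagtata
Twistnb, chr12:34359870-34359948: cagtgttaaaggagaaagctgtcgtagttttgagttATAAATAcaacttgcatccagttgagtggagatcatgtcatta
Gpc6, chr14:117750674-117750753: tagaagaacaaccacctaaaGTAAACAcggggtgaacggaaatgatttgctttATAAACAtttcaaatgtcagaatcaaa
Rtl1, chr12:110835204-110835282: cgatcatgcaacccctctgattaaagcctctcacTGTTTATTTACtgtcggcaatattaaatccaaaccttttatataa
Wnt16, chr6:22156282-22156360: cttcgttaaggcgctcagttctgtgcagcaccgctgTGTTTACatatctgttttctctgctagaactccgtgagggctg
Amd2, chr10:35048521-35048599: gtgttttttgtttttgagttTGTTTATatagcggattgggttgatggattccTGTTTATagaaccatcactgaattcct
Hes1, chr16:30096736-30096815: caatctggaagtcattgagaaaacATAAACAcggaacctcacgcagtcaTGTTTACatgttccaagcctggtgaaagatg
Foxf2, chr13:31724397-31724493: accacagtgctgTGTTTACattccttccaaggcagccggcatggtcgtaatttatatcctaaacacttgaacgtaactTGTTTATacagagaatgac
Ptch1, chr13:63743287-63743365: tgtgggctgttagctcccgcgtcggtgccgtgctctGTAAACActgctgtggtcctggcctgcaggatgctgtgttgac
The pair near Hes1 holds an ATAAACA on the plus strand followed by a GTAAACA on the minus strand, 25 bp apart. The 2 sites near Rtl1 overlap, with starts 4 bp apart. The Amd2 window holds the same ATAAACA site at 2 places on the minus strand, 32 bp apart. The windows near Twistnb, Wnt16 and Ptch1 hold a single site each, which near Twistnb is ATAAATA.

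The normalized tag count of the members ran from 40.2 to 258.1 with a median of 52.5, against 5.21 to 39.9 and a median of 10.8 in the other 8580 regions. In raw ChIP tags this was 108 to 693 with a median of 141, against 14 to 107 with a median of 29. Most members lay near the threshold: 193 reached 60 and 14 reached 100. Just inside, at 108 ChIP tags, were regions near Epgn with 6 input tags, B630005N14Rik with 5 and AI467606 with 5. Just outside, at 107 ChIP tags, were regions near Dis3l2 with 3 input tags and Rplp0 with 5.

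The region with the most tags lay in a coding exon of Hdac9 at chr12:34736623-34737752, and its nearest protein-coding start was that of Twist1, 94.7 kb away. It held 693 ChIP tags and 23 input tags, a 21.6-fold excess after scaling for depth (exact 95% interval 14.3 to 34.3, counting error only), and 7 forkhead sites against 1 in a flank of equal width. Twist1 encodes a bHLH transcription factor needed in the cranial mesenchyme, and Hdac9, a histone deacetylase gene, is known in mouse and zebrafish to hold enhancers of Twist1 in its exons and introns. The region with the next most tags lay in the same neighbourhood at chr12:34359620-34360912, with 441 ChIP tags, 18 input tags and 3 forkhead sites. Its nearest start, at 246 kb, was that of Twistnb, which encodes an RNA polymerase I subunit, and it lay 282 kb upstream of the Twist1 start.

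The other regions among the first 15 held 267 to 357 ChIP tags and 6 to 22 input tags. Gpc6, a glypican gene of the cell surface, held a region in its intron with 357 ChIP and 15 input tags, 426 kb from its start. A region 29.0 kb upstream of Slc14a2, a urea transporter gene, held 344 ChIP and 17 input tags. Rtl1, an imprinted gene derived from a retrotransposon, had a region 3.68 kb inside it with 342 ChIP and 22 input tags. The region nearest Wnt16, a Wnt ligand gene, lay 81.9 kb away in an intron of A430107O13Rik, with 322 ChIP and 18 input tags. Hes1, a transcriptional repressor gene of the Notch pathway, had a region 31.3 kb away with 309 ChIP and 20 input tags. The nearest genes of the other 8 were Amd2, Tas2r134, 0610007P08Rik, Gm9930, Fam20b, Wdr37, Zc3h15 and Usp24, at 14.5 kb to 496 kb. Fam20b encodes a kinase of proteoglycan synthesis and Tas2r134 a bitter taste receptor. None of the first 15 was within 1 kb of a protein-coding start, and a nearest gene is a position, not a measured target.

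The fold over input of the members was like that of the other called regions. The median fold over input was 12.9 in the members and 12.9 in the other regions, where the caller's minimum was 10. At least 15-fold were 147 members (25.1%) against 34.1% of the other regions, where 33.5% of the whole list was past that value. The input was higher in the members too, with a median of 8 tags against 1, and per base the members held 12.5 times the genome mean of the ChIP library and 0.935 times that of the input, against 4.66 and 0.338 in the other regions. Of the 585 highest folds only 16 belonged to members, and of the 585 highest scores 246 (42.1%). The input held 0 tags in 1 member (0.171%) and in 586 of the other regions (6.83%). For these regions 0.5 input tags were written, so their fold rests on that set value. How far they account for the shares past 15-fold and among the highest folds was not tested. The caller's minimum fold limits the input tags that a region of a given tag number can hold. Across the members tag count was correlated with input tags (r = 0.724, rho = 0.661, n = 585). The correlation of tag count with score was weak (r = 0.0859, rho = 0.0316, n = 585), and for both all points share 1 pair of libraries.

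The members were wider than the rest. Their median width was 888 bp, from 500 to 2598, against 500 bp, and 161 (27.5%) were over 1000 bp against 1.85%. The widest belonged to promoters: the median was 1072 bp in the 83 members within 1 kb of a protein-coding start and 880 bp in the 502 distal members. Named after their values were seen, the 4 widest lay at the starts of Arid1a at 2598 bp, Bnc2 at 2496 bp, Gas1 at 2119 bp and Mn1 at 2045 bp. Per 100 bp the promoter members held a median of 12.9 ChIP tags and the distal ones 17.4. The threshold counts the tags of a whole region, so a wide region can pass it with fewer tags per base. All members ranged from 5.58 to 61.4 tags per 100 bp, and the other regions from 2.38 to 20.8.

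**Figure D1:**
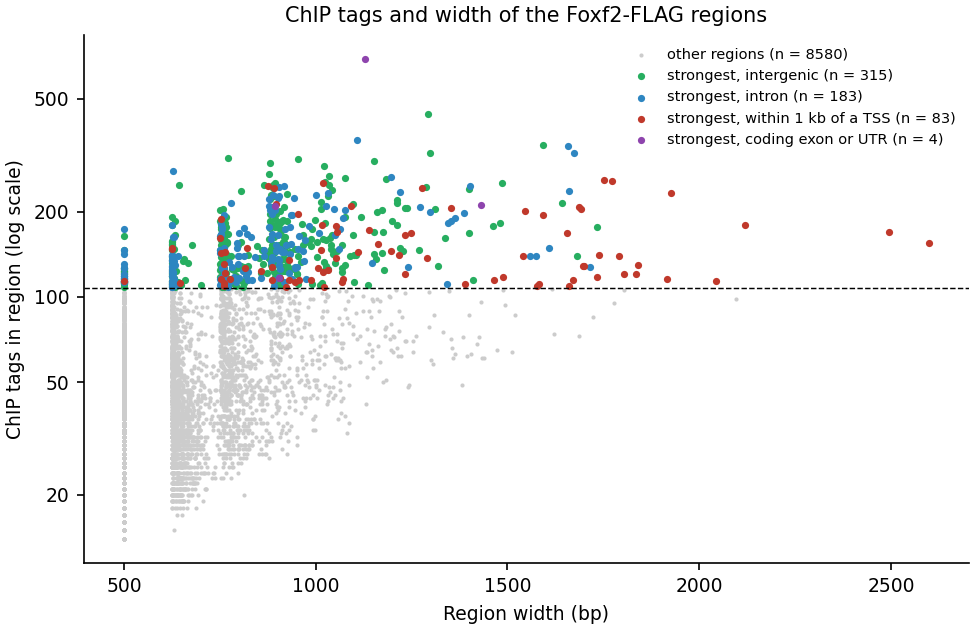
ChIP tags per region (log axis) against region width in bp, 1 point a region; coloured points are the 585 strongest regions by location, grey points the other 8580, and the dashed line is the threshold between 107 and 108 tags. The regions beyond 2000 bp above the line are promoter regions, and the highest point is the Hdac9 exon region with 693 tags.

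The strongest regions lay farther from genes than the other regions. Within 1 kb of a protein-coding start were 83 (14.2%, Wilson 95% interval 11.6 to 17.2) against 26.5% of the others (odds ratio 0.459, Fisher's exact test, 2-sided, adjusted p = 3.05e-11 over 8 location comparisons). Intergenic regions made up 315 (53.8%) against 40.3% (odds ratio 1.73, Fisher's exact test, adjusted p = 7.83e-10), and the intronic share of 31.3% did not differ detectably from 30.8% (odds ratio 1.02, adjusted p = 0.817). Beyond 100 kb of any start were 195 (33.3%) against 23.8% (Fisher's exact test, adjusted p = 1.59e-06), and among distal regions alone 38.8% against 32.4% (odds ratio 1.32, adjusted p = 0.00573). The median distance was 47.2 kb against 22.5 kb. Coding exons held 3 members and UTRs 1, the latter a smaller share than the 1.27% of the others (odds ratio 0.133, Fisher's exact test, adjusted p = 0.0132).

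**Figure D2:**
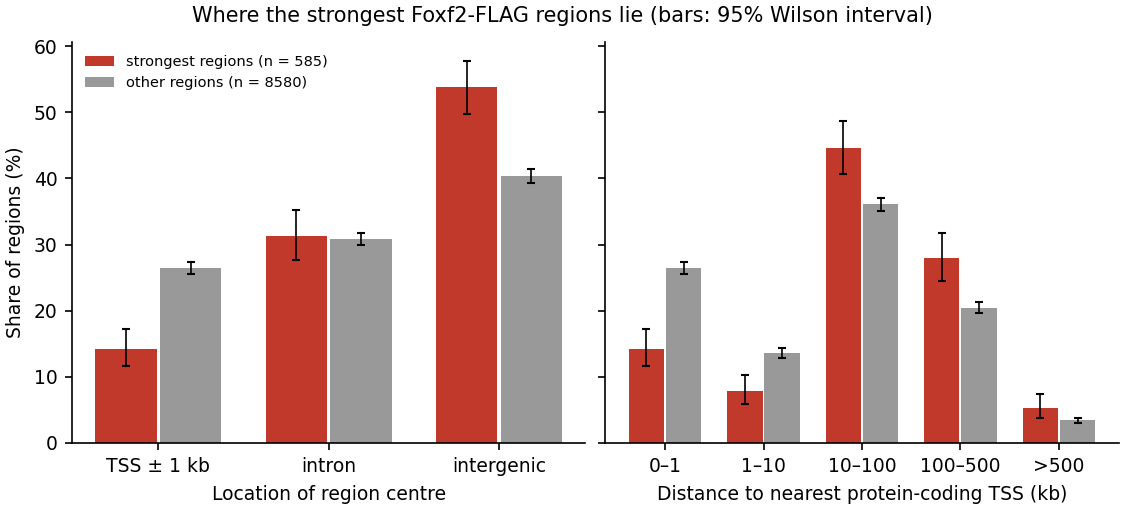
Share of regions in percent by location of the centre (left) and by distance to the nearest protein-coding start (right), for the 585 strongest and the other 8580 regions; error bars are Wilson 95% intervals. The strongest regions are fewer within 10 kb of a start and more between 10 and 500 kb.

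Of the 183 intronic members, 144 (78.7%) had as nearest start one of a gene that contained them. Members were spread over the genome: 9 (1.54%) had another member within 10 kb and 77 (13.2%) within 100 kb. Members were 9.94% of the regions on chromosome 16 and 9.34% of those on chromosome 13, but 3.56% of those on chromosome 9. The X chromosome held 2 members (0.342%) against 193 (2.25%) of the other regions (odds ratio 0.149, Fisher's exact test, adjusted p = 0.00101), and the labels do not give the sex of the pooled embryos.

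A gene was nearest to at least 1 member in 518 cases, to at least 2 in 56 and to at least 3 in 9. Zfp608, a zinc finger gene, and Odz3, the teneurin 3 gene of cell adhesion, were nearest to 4 members each. The Odz3 members held 213, 122, 115 and 114 ChIP tags, 1 of them at the start and the farthest 341 kb away. Nr2f1, an orphan nuclear receptor gene, had 3 members upstream with 205, 180 and 131 ChIP tags, at 125 to 1148 kb. Dact1, whose product binds Dishevelled in the Wnt pathway, had 3 at 35.2 to 235 kb with 204, 153 and 132 ChIP tags and 7, 6 and 4 forkhead sites. Fmn2, a formin gene, had 3 in its own intron with 202, 135 and 126 ChIP tags. Gpc6, Ptch1, Dclk1 and Lama4 also had 3 members each, and Gm9930 had 2. Dclk1 encodes a doublecortin-like kinase and Lama4 a laminin chain of basement membranes.

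Members lay within 100 kb of 366 of 22238 protein-coding genes as their nearest start (1.65%). Regions of any tag count were assigned in this way to 22.1% of the genes, and 7.45% of the genes so assigned had a member. Among 49 palate regulators 9 (18.4%) had a member, counted without a test. Regions of any tag count were assigned to 81.6% of this list, and 22.5% of the genes so assigned had a member. The 9 genes with a member included Twist1, described above. Bnc2, the zinc finger gene basonuclin 2, had 222 ChIP tags in a region 78.1 kb upstream with 1 forkhead site and 169 at its start with none. Lhx8, a LIM homeobox gene of palatal mesenchyme, had 172 ChIP tags at its start and 130 in a region 43.4 kb away.

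Among 33 forkhead genes 5 (15.2%) had a member. Regions of any tag count were assigned to 54.5% of this list, and 27.8% of the genes so assigned had a member. The region at Foxf2 itself was at chr13:31723917-31724940, 6.74 kb from the start and beyond the 3′ end of the gene, with 255 ChIP tags, 12 input tags (15.2-fold, 8.57 to 29.9) and 3 forkhead sites against 0 in the flank. The Foxc2 region lay 11.1 kb from that gene and 42.9 kb from the start of Foxf1a, the closest relative of Foxf2 (named after the value was seen), with 190 ChIP and 8 input tags and 4 forkhead sites. Foxk1 had 186 ChIP tags 33.9 kb upstream. Foxo3 had 137 and 134 ChIP tags at 1.48 and 73.2 kb.

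Among 19 hedgehog pathway genes 4 (21.1%) had a member. Regions of any tag count were assigned to 78.9% of this list, and 26.7% of the genes so assigned had a member. Ptch1, the receptor gene that hedgehog signalling itself induces, had 3 regions: 197 ChIP and 11 input tags 68.8 kb upstream, 148 and 9 in an intron, and 129 and 9 at a start. Within 500 kb of the Ptch1 start lay 8 members in all, the strongest with 301 ChIP and 10 input tags 342 kb upstream, next to 0610007P08Rik. Gas1, a hedgehog co-receptor gene, had 179 ChIP tags at its start in a region of 2119 bp with no forkhead site. Hhat, which encodes the acyltransferase that modifies hedgehog ligands, had 154 ChIP tags 18.9 kb upstream. Gli2, a transcription factor gene of the pathway, had 149 and 130 ChIP tags at 53.1 and 74.6 kb, each with 4 forkhead sites.

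In the other signalling lists few genes had a member, and no difference from the hedgehog list was tested. In the FGF list 1 of 23 genes (4.35%) had a member, Etv5, an ETS factor gene, with 168 ChIP and 6 input tags at its start. In the Wnt list 3 of 41 (7.32%) did: the co-receptor genes Lrp5 with 138 ChIP tags 23.8 kb away and Lrp6 with 115 at 0.053 kb, and the receptor gene Ror1 with 118 at 6.01 kb. In the TGF-beta and BMP list 1 of 35 (2.86%) did, Tgfbr3, the co-receptor gene betaglycan, with 181 and 119 ChIP tags. The nearer Tgfbr3 region lay 20.5 kb and the farther 63.4 kb from a start. Regions of any tag count were assigned to 65.2%, 73.2% and 57.1% of these lists in turn. Of the genes so assigned 6.67%, 10% and 5% had a member, against 7.45% over all genes, so nothing is read from these counts. Of 44 extracellular matrix genes 5 (11.4%) had a member, led by Col4a3 with 180 ChIP tags, Col1a1 with 164, Col6a3 with 146 and Col14a1 with 117. The regions of these collagen genes lay 54.9, 39.3, 9.08 and 76.5 kb from a start in turn. Regions of any tag count were assigned to 70.5% of this list, and 16.1% of the genes so assigned had a member.

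The lists of other cell types and of bone genes held 0 or 1 gene with a member, which for lists of 18 to 20 genes is near the 1.65% of all genes, so nothing is read from them. No member was assigned to any of 20 epithelial, 20 neural, 18 muscle, 20 blood and macrophage or 20 osteogenic genes, while regions of any tag count were assigned to 5, 5, 2, 3 and 9 of them. Of 20 endothelial genes 1 had a member, Erg, with 229 ChIP tags in its intron and 120 at a start. These are positions in chromatin from mixed cells, so the cell type that a region was bound in was not tested.

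Forkhead sites were concentrated at the centres of the members. In the central 200 bp 412 (70.4%) held a site, against 117 (20%) of windows of equal length 2000 bp upstream (3.52 times, exact McNemar test, 2-sided, p = 1.46e-59). For these windows and for flanks, upstream means toward lower genomic coordinates whatever the strand of the nearest gene. In the other regions the central share was 38.8% (odds ratio 3.76, Fisher's exact test, 2-sided, p = 1.32e-50, and 3.37 with a 95% interval of 2.75 to 4.14 within bins of equal GC content). In control sequences made by reading the sites backward, 79 centres and 91 upstream windows held a match (exact McNemar test, adjusted p = 0.617 over 28 motifs). Within the members with a site, the site nearest the centre was a median of 49 bp away, against 71 bp in the other regions.

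**Figure D3:**
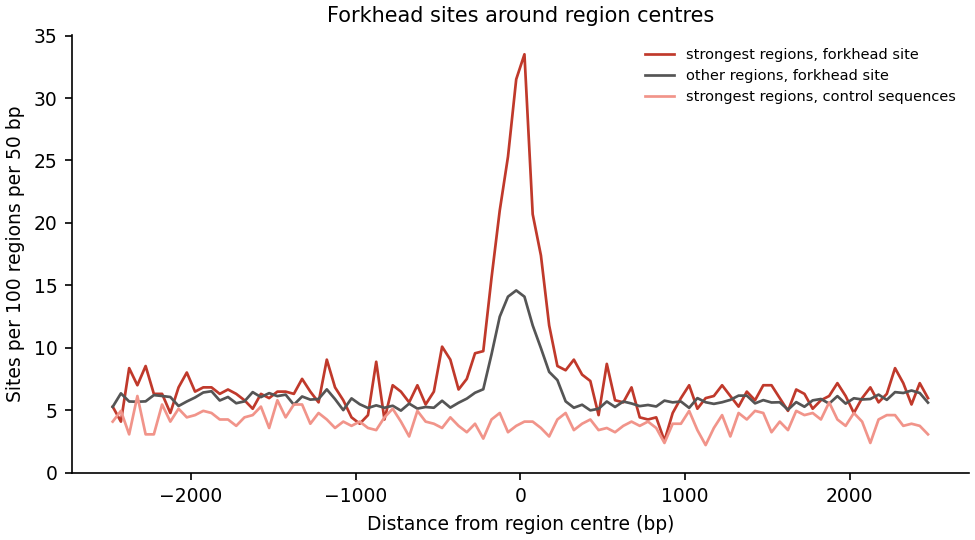
Forkhead sites per 100 regions per 50 bp against distance from the region centre in bp, for the 585 strongest regions (red) and the other 8580 (grey); the pale line is the backward control in the strongest regions. The red line reaches 33.5 at the centre and the grey line 14.6, and the pale line has no peak there.

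The 4 forms of the site did not contribute alike. GTAAACA was in 34.5% of member centres against 3.42% upstream (10.1 times) and ATAAACA in 39.1% against 4.96% (7.90 times). GTAAATA was in 8.72% against 2.91% (3.00 times, exact McNemar test, adjusted p = 4.44e-05 over the 4 forms). ATAAATA was in 10.9% of both windows (exact McNemar test, adjusted p = 1). The 2 forms that end in ACA together were in 63.2% of centres and 8.38% of upstream windows, 7.55 times. Over whole members ATAAACA made up 40.9% of 1563 sites and GTAAACA 29.2%, while in the flanks ATAAATA led with 47.5% of 678 sites. Whole members had 2.89 sites per kb against 1.25 in the flanks, and the other regions 2.03 against 1.18.

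Most members held several sites. At least 1 was found in 559 (95.6%) against 356 (60.9%) of flanks of equal width, at least 2 in 434 (74.2%) against 29.1%, and at least 4 in 150 (25.6%) against 5.13%. The mean was 2.67 against 1.16, with more in the region than in its flank for 417 members, fewer for 78 and equal numbers for 90 (exact sign test, 2-sided, p = 5.27e-57). The median normalized tag count was 44.7 in the 26 members with no site, 51 in the 125 with 1, 56.0 in the 82 with 4, 66.7 in the 33 with 5 and 56.6 in the 35 with at least 6. Across members the correlation of tag count with the number of sites of all 4 forms was weak (r = 0.209, rho = 0.216, n = 585). It was also weak with GTAAACA and ATAAACA sites alone (r = 0.316, rho = 0.293) and with width (r = 0.287, rho = 0.360).

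Neighbouring sites that did not overlap had a median spacing of 111 bp between starts (930 pairs in 431 members), against 178 bp in the flanks (272 pairs in 160). Of the pairs 27.6% were within 50 bp against 25.4% in the flanks, and 46.5% within 100 bp against 36.4%. Including overlapping sites, the closest pair was within 50 bp in 216 members (36.9%) and in 67 flanks (11.5%), where 434 members and 170 flanks held a pair at all. Sites were denser in members, at 2.89 per kb against 1.25, and denser sites lie closer together in any arrangement. Spacing apart from site density was not tested. No orientation prevailed: 49.6% of the non-overlapping pairs were on the same strand, 26.9% ran plus then minus and 23.5% minus then plus. The single most frequent spacing was 4 bp, in 59 of 1004 pairs, and in flanks in 46 of 322. In 4 members it came from tandem runs of ATAAATA, such as the promoter region of Erg with 11 sites, 10 of them in the run shown here.
Erg, chr16:95808713-95808791: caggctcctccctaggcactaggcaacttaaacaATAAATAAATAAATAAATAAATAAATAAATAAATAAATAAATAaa
Only 1 of the 11 sites of the Erg region was of the forms GTAAACA or ATAAACA.

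**Figure D4:**
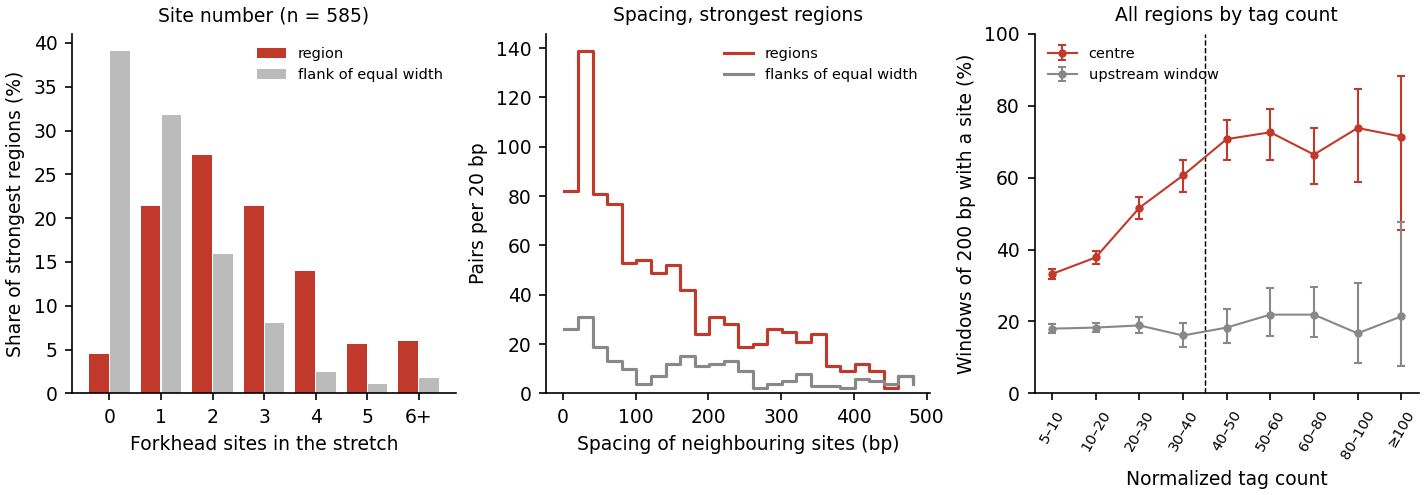
Left, share of the 585 strongest regions (%) with 0 to 6 or more forkhead sites in the region and in a flank of equal width; middle, pairs of neighbouring sites per 20 bp of spacing, from 7 bp up; right, share of central and upstream 200 bp windows with a site by normalized tag count over all 9165 regions, with Wilson 95% intervals and the threshold of 40 dashed. The central share climbs from 33.2% in the lowest bin to 60.6% just below the threshold and stays between 66.4% and 73.8% above it.

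Above the threshold the share of centres with a site was 70.7% at 40 to 50, 72.6% at 50 to 60, 66.4% at 60 to 80, 73.8% at 80 to 100 and 71.4% (10 of 14) from 100 up, with intervals that overlapped and few regions in the highest bins. Centres with GTAAACA or ATAAACA made up 60.6% at 40 to 50, 67.8%, 59.9%, 73.8% at 80 to 100 and 64.3% from 100 up. The mean number of sites in a whole region over the same bins went from 2.37 to 2.71, 2.93, 3.12 and 3.71, and the median width from 778 to 1118 bp. Per kb the sites numbered 2.82, 2.96, 2.91, 2.86 and 3.24 over these bins. Below the threshold the share went from 33.2% to 60.6%, while the upstream windows stayed at 16.1% to 21.9% over all bins.

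Promoter members differed from distal members in GC content and from other promoter regions in forkhead share. Their central GC content had a median of 71.0%, against 41.5% in distal members and also 71.0% in the other promoter regions. A forkhead site was in 31 of 83 promoter member centres (37.3%) against 8.88% of the other promoter regions (odds ratio 6.12, Fisher's exact test, adjusted p = 8.77e-11 over 28 motifs). Against their own upstream windows, with 22.9%, the share of promoter member centres did not pass (1.63 times, exact McNemar test, adjusted p = 0.229). GTAAACA or ATAAACA was in 34.9% of promoter member centres and 10.8% of windows upstream (3.22 times, exact McNemar test, adjusted p = 0.0120). Over whole promoter members the mean was 1.52 sites against 1.55 in flanks of equal width (exact sign test, 2-sided, p = 0.704), whereas distal members had 2.86 against 1.09 (p = 1.55e-65). The upstream windows of promoter members had a median GC content of 41.5%, against 71.0% at their centres. The backward control was in 1.2% of promoter member centres against 13.25% of these windows (exact McNemar test, adjusted p = 0.04375 over 28 motifs). How far base composition sets these promoter comparisons was not tested. Of the 26 members with no site 13 were promoter regions, among them those at Gas1, Bnc2 and Lrp6, and, named after their values were seen, Rps14, which had the most ChIP tags of the 26 at 242, and Mn1.

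Of the other motifs searched, 2 were more frequent in member centres than in the windows upstream. SOX sequences, AACAAAG and AACAATG, were in 16.1% against 8.72% (1.84 times, exact McNemar test, adjusted p = 0.00226 over 28 motifs). They can share bases with a forkhead site, and without such matches the shares were 9.23% and 8.38% (exact McNemar test, adjusted p = 0.935). CATCTG, an E-box read by basic helix-loop-helix factors, was in 122 centres against 79 upstream windows (1.54 times, exact McNemar test, adjusted p = 0.0113), and against windows downstream 1.27 times (adjusted p = 0.146). Without matches that overlap a forkhead site it was in 119 centres, 1.51 times the upstream windows, with adjusted p = 0.0730 by the same exact test over the 23 motifs that are not forkhead sequences. GGAATG, read by TEAD factors, was in 15.6% against 10.8% (exact McNemar test, adjusted p = 0.0709). Without matches that overlap a forkhead site it was in 14.4% against 10.8% (exact McNemar test, adjusted p = 0.236 over the 23 motifs).

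Compared with the other regions, 3 motifs beside the forkhead site were more frequent in member centres and 2 less so. They were SOX in 16.1% against 10.4% (odds ratio 1.66, Fisher's exact test, adjusted p = 2.38e-04), CATCTG in 20.9% against 15.8% (1.41, adjusted p = 0.00785) and TEAD in 15.6% against 9.55% (1.75, adjusted p = 7.95e-05). These counts include matches that share bases with a forkhead site. Without such matches the member shares were 9.23% for SOX, 20.3% for CATCTG and 14.4% for TEAD. The shares of the other regions without them are not given here. The AP-2 sequence GCCNNNGGC was in 6.32% against 12.2% (0.485, Fisher's exact test, adjusted p = 5.71e-05) and the SP/KLF sequence GGGGCGGGG in 2.05% against 4.13% (0.487, adjusted p = 0.0462). Promoter regions, rich in G and C, were fewer among members; among distal regions alone TEAD stood at 16.7% against 11.2% (1.59, Fisher's exact test, adjusted p = 0.00458), and SOX, CATCTG, AP-2 and SP/KLF did not pass (adjusted p = 0.0896, 0.230, 0.419 and 1). In member centres with a forkhead site TEAD was in 17.5%, or 15.8% without overlapping matches. In those without a forkhead site it was in 11%, with no test of that difference.

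**Figure D5:**
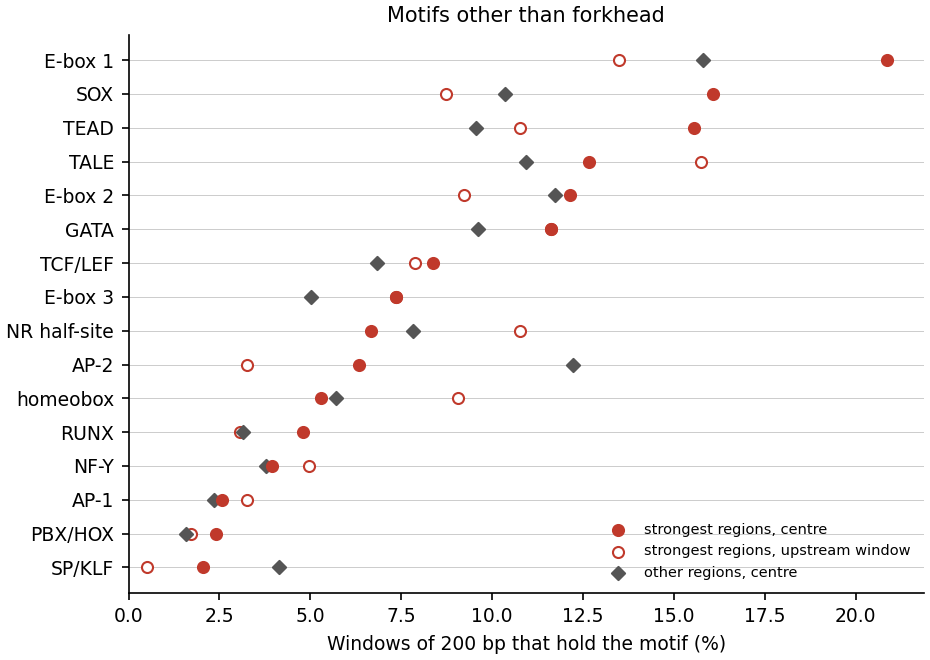
Share of 200 bp windows (%) with each motif in centres of the strongest regions (filled red), in their upstream windows (open red) and in centres of the other regions (grey diamonds); equal values overlap. E-box 1 is CATCTG, E-box 2 CAGCTG and E-box 3 CATATG. The red point lies right of both others for E-box 1, SOX and TEAD, and by less for E-box 2, TCF/LEF, RUNX and PBX/HOX. The AP-2 diamond at 12.2% lies right of the red point at 6.32%.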

How the data were processed

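Per the labels' protocols, nuclei were sonicated, precipitated with anti-FLAG antibody and made into libraries with a Rubicon ThruPLEX kit. Reads were placed on mm9, and Bowtie 1.0.0, SAMtools 0.1.19 and HOMER were named, per the submitters' processing notes; no HOMER version is given there. Regions were called on the 1 ChIP against the 1 input library with findPeaks in histone style, which stitches 500 bp peaks into wider regions, per the file headers, so a centre is not a summit. Per the file headers, at most 1 tag was kept per position, the fragment length was 112 bp, and regions needed a 10-fold excess over input and over the surrounding 10000 bp, each at a Poisson p of 0.0001.

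The deposited signal was the tag number scaled to 10000000 tags, and coverage columns held input tags, with 0.5 where there was none, and ChIP tags rescaled to the depth of the input. Multiplied back, each value lay within 0.134 of a whole tag (tolerance 0.15). The deposited fold, score and p-value are the authors' peak caller's own values; fold and score only describe and filter regions here, and the p-value was not used. Widths are end minus start.

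Locations and nearest protein-coding starts came from GENCODE vM1 on NCBIM37, the assembly of mm9; genes within 100 kb entered the gene lists, and 362 of 364 entries of 13 lists matched, 5 by an older symbol. Motifs were counted on both strands, whole or overlapping, in the central 200 bp, in windows 2000 bp upstream and in flanks of the region's width starting 1000 bp upstream. Windows and flanks upstream lay at lower genomic coordinates and those downstream at higher ones, regardless of gene strand. Motif shares were compared by exact McNemar and Fisher tests with Benjamini-Hochberg adjustment, and site numbers by an exact sign test. Python 3.11.15, SciPy 1.17.1, statsmodels 0.14.6 and pysam 0.24.0 were used, and the scans were tested on simulated data.

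The members, lists, motifs and tests were chosen with earlier results of these data known. The text names the genes nearest to the 15 members with most tags, up to 10 genes nearest to at least 2 members, up to 4 genes a list, and 3 on each side of the threshold; some of these are not reported here. Shares carry Wilson intervals and folds exact intervals, for counting error only, since copies made by PCR are not independent molecules. Alternatives were other thresholds (30 and 60), members at least 15-fold, 400 bp windows, flanks downstream, stricter sites, distal regions, GC bins, other promoter definitions, motif matches free of forkhead overlap and other distance limits.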

Additional observations from a re-analysis of the deposited data

How the results depend on the processing

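All values rest on 1 ChIP and 1 input library, so the depth limits each region to its counting error and nothing bears on the spread between precipitations. No paired analysis was possible because each group had 1 library and no replicate numbers were shared. The forkhead share against upstream windows (2.46 to 7.55 times), the forkhead odds ratio against the other regions (3.20 to 4.65), the promoter odds ratio (0.444 to 0.541) and the difference in site number (1.33 to 1.78 sites) kept their direction and stayed past the threshold under each alternative run for them. Counts of motifs moved. Against upstream windows 4 motifs, 2 of them forkhead forms, were more frequent in member centres; this was 2 at a threshold of 60, 10 at 30, 2 for members at least 15-fold over input and 7 in 400 bp windows. Of the 2 that were not forkhead forms, 0 passed without matches that overlap a forkhead site, where the adjustment also ran over 23 motifs in place of 28; SOX went from 1.84 to 1.10 times and CATCTG from 1.54 to 1.51. The number less frequent, 0, became 1 at a threshold of 30, 1 for members at least 15-fold and 1 against downstream windows. Against the other regions 5 motifs were more frequent; this was 3 at a threshold of 60, 10 at 30, 3 for members at least 15-fold, 8 in 400 bp windows and 3 in distal regions. The 2 less frequent became 1 at a threshold of 60, 0 for members at least 15-fold, 0 in distal regions and 1 without matches that overlap a forkhead site. Thresholds of 60 and 15-fold leave fewer members, 193 and 147, and a threshold of 30 leaves more, 1052; beyond that the cause was not tested. With starts within 10 kb in place of 100 kb, 129 genes had a member in place of 366, and the lists had 2 forkhead, 2 hedgehog, 0 TGF-beta and BMP and 1 extracellular matrix gene; with no limit on distance the FGF list had 3 and the Wnt list 6. Of 322 values for single motifs under alternatives, 280 kept their direction and side of the threshold, 22 came past it and 20 were lost. None of the values run changed direction past a threshold.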
